A study of Mus musculus with 8 samples.

Results

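Collagen transcripts were followed in mouse dorsal root ganglia. The members are all rows of the deposited expression table whose symbol is Col, a number, a and a number. They number 44 of 21878 gene rows. Of these, 9 encode fibrillar collagens (types I, II, III, V and XI), 8 encode collagens of the basement membrane (types IV, XV and XVIII) and 27 encode the other types. Values are FPKM, fragments scaled to transcript length and to the mapped fragments of the library. A gene was tested if it reached 1 FPKM in at least 2 of the 8 libraries. By that filter 9 of 9 fibrillar, 4 of 8 basement membrane and 16 of 27 other collagens were tested, 29 in all, among 12884 tested genes.

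The libraries came from lumbar ganglia (L4/5) of C57BL/6 mice, taken 3 days after surgery. In dKO SNI, mice carrying Advillin-Cre and floxed Myh9 and Myh10 alleles had the sciatic nerve cut (axotomy), and dKO sham mice of that genotype had sham surgery. WT SNI and WT sham mice had the same operations and the same floxed alleles with no Cre. Each of the 4 groups has 2 libraries. Advillin is a gene of sensory neurons, so the fibroblasts, glia and vessels of the ganglion are not its known targets. Since the WT mice lack Cre, loss of Myh9 and Myh10 and the presence of Cre cannot be told apart.

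Collagens are secreted proteins whose chains wind into a triple helix. Fibrillar collagens pack into the fibres of connective tissue, type IV forms the sheet of basement membranes around vessels, Schwann cells and satellite glia, and further types coat fibrils, form beaded filaments or span membranes. In nerves the fibrillar types are mainly products of fibroblasts, while Schwann cells also make type IV, type V and some of the smaller collagens.

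Summed FPKM per library were 278310 to 339920, and the read depth behind them is unknown, because whole reads could not be recovered from the values. Whether the paired libraries of a group stem from different mice is not labelled, and p-values therefore reflect only library-to-library spread, which may be technical. Myh9 measured 24.6 and 24.4 FPKM in dKO SNI, 10.9 and 12.1 in dKO sham, 30.8 and 29.7 in WT SNI, and 27.2 and 31.6 in WT sham. Myh10 measured 5.31 and 4.12, 12.2 and 14.4, 13.8 and 10.4, and 18.1 and 23.5 FPKM in those groups in the same order. Both genes were lower in each dKO group than in the WT group of the same surgery, with no overlap between libraries. Y-linked transcripts split the groups: they lay at 2.81 to 17.8 FPKM in dKO SNI and 2.10 to 9.98 in WT sham, against at most 0.0109 in dKO sham and 0.00745 in WT SNI. Each comparison of a pair of groups, and the interaction, therefore cannot be told apart from this split. The averages over both genotypes or both surgeries have the same number of libraries with and without Y-linked transcripts on each side. The WT sham 2 library also held skeletal muscle transcripts, with Ckm at 138 FPKM against at most 3.17 in the other 7 libraries. In bulk tissue, fewer cells of a type and less RNA per cell cannot be told apart.

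Total collagen expression was higher after axotomy in both genotypes, and the fibrillar class carried most of the difference. Fibrillar collagens summed to 322 ± 6.50 FPKM in dKO SNI, 186 ± 41.8 in dKO sham, 260 ± 23.9 in WT SNI and 68.5 ± 7.25 in WT sham (mean ± SD, n = 2 each). The sum was 1.73 times as high in dKO SNI as in dKO sham and 3.80 times as high in WT SNI as in WT sham. Between genotypes it was 2.71 times as high in dKO sham as in WT sham and 1.24 times as high in dKO SNI as in WT SNI. The libraries of the groups in each of these pairs did not overlap.

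By their sums, the basement membrane collagens moved less than the fibrillar ones. Their sums were 46.2 ± 5.14 FPKM in dKO SNI, 43.8 ± 6.09 in dKO sham, 46.3 ± 4.72 in WT SNI and 23.2 ± 1.07 in WT sham. The ratio was 1.05 for dKO SNI over dKO sham and 1.99 for WT SNI over WT sham. Between genotypes it was 1.89 for dKO sham over WT sham and 0.998 for dKO SNI over WT SNI. WT sham was the low group, and the other 3 groups overlapped. The remaining collagens summed to 106 ± 3.99, 82.0 ± 11.2, 89.6 ± 11.9 and 48.8 ± 4.08 FPKM in dKO SNI, dKO sham, WT SNI and WT sham.

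The composition of collagen RNA differed accordingly. Fibrillar genes held 67.5 to 68.4% of all collagen FPKM in dKO SNI, 57.9 to 60.9% in dKO sham, 65.0 to 66.3% in WT SNI and 48.1 to 49.3% in WT sham, with no overlap between any pair of groups. The basement membrane share was 8.91 to 10.6%, 13.6 to 14.6%, 10.3 to 13.3% and 16.0 to 17.0% in the same order. Sums in FPKM weight each gene by its own level, so Col1a2, Col3a1 and Col5a3, the leading members by mean over all libraries (68.4, 52.4 and 39.4 FPKM), set most of the fibrillar value. These 3 genes held 35.4 to 54.3% of all collagen FPKM in a library.

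**Figure D1:**
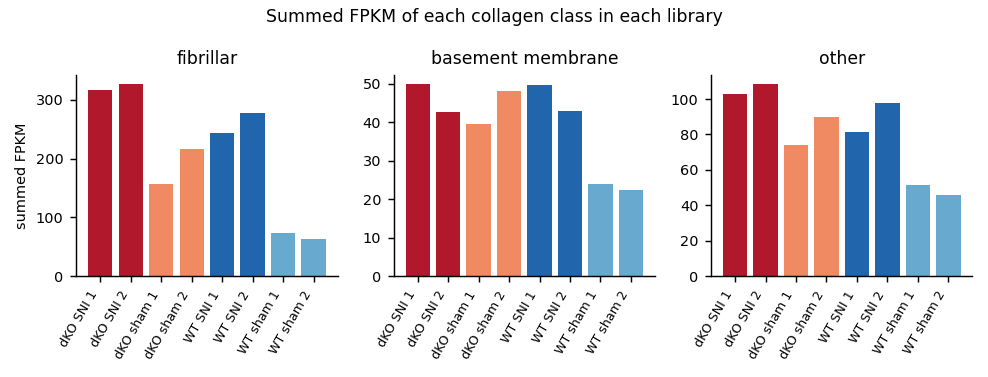
Summed FPKM of fibrillar, basement membrane and other collagens in each library (1 bar per library) for dKO SNI, dKO sham, WT SNI and WT sham. The fibrillar sum averages 322 FPKM in dKO SNI and 68.5 in WT sham, while the basement membrane sum averages 43.8 to 46.3 FPKM in 3 groups and 23.2 in WT sham.

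Across the tested collagens, called changes ran upward in all comparisons except for Col11a1, which fell in dKO SNI against dKO sham. Tests were made with limma on log2(FPKM + 1), with p-values adjusted by Benjamini-Hochberg over all 12884 genes and called below 0.05. Changes are log2 differences on that scale, with their standard error, and understate the change of low genes. In dKO SNI against dKO sham, 12 of 29 were called higher and 1 lower, where 23.8% and 24.6% of all tested genes were called higher and lower. Those 12 were 4 of 9 fibrillar, 1 of 4 basement membrane and 7 of 16 other collagens, with median log2 changes of 0.48, 0.03 and 0.46 against -0.00076 over all genes. In WT SNI against WT sham, 17 of 29 were called higher and 0 lower, where 13.6% and 9.38% of all tested genes were. Those 17 were 6 fibrillar, 4 basement membrane and 7 other collagens, with medians of 1.32, 0.78 and 0.55 against 0.07 over all genes. Of the genes called in WT SNI against WT sham, 59.3% were higher, and 45.9% after quantile normalization, under which 16 collagens were called, all higher.

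The depth of support differed between these counts. In WT SNI against WT sham, 12 of the 17 calls held in each of the 8 fits that leave out 1 library, among them all 6 fibrillar ones. Of the 13 dKO calls, 3 did (Col5a2, Col5a3 and Col27a1). Without dKO SNI 2 the dKO comparison called 4 collagens, and without dKO sham 1 it called 5. Other settings that ended calls in WT SNI against WT sham were the absence of a filter on low values for Col28a1, Col4a2 and Col6a3 (adjusted p = 0.0652, 0.0809 and 0.0741) and quantile normalization for Col6a3 (0.0563). For dKO SNI against dKO sham, calls ended without a filter for Col15a1 (0.0629) and Col6a1 (0.0940), with smaller pseudocounts for Col6a1 (0.0503 and 0.0571), after quantile normalization for Col7a1 (0.113), and with only the 4 libraries compared for Col16a1 (0.0552) and Col7a1 (0.0515).

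Between genotypes, 3 of 29 collagens were called higher in dKO sham against WT sham (Col1a1, Col3a1 and Col5a2), where 0.0931% of all tested genes were called higher and 0.0621% lower. In all, 12 genes were called higher there. The count fell to 1 without dKO sham 2 or without WT sham 2 and to 0 without a filter on low values. The medians were 0.75, 0.84 and 0.39 for fibrillar, basement membrane and other collagens, against 0.04 over all genes. Between the SNI groups, 5 of 29 were called higher in dKO SNI (Col5a2, Col5a3, Col16a1, Col24a1 and Col27a1), where 10.7% of all tested genes were called higher and 13.4% lower. Without dKO SNI 2, or without WT SNI 1, limma called 0 collagens, and over all genes it then called 11 and 10, against 3106 with all libraries. With all libraries 8 of 29 collagens had an unadjusted p below 0.05, a share below the 40.5% of all genes. The medians there were 0.28, -0.08 and 0.29.

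The same was counted from the libraries without a model, as genes with both libraries of one group beyond both of the other. Of the 29 tested collagens, 18 lay above and 3 below in dKO SNI against dKO sham (all tested genes 37.7% and 37.8%), and 25 above and 1 below in WT SNI against WT sham (39.8% and 29.2%). In dKO sham against WT sham 24 lay above and 0 below (27.8% and 18.3%), and in dKO SNI against WT SNI 14 above and 3 below (30.8% and 37.4%). In dKO sham against WT sham all 9 fibrillar and all 4 basement membrane collagens lay above. In dKO SNI against WT SNI, 0 of the 4 basement membrane collagens lay above or below.

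No collagen passed the interaction in limma, and 16 of 29 had an unadjusted p below 0.05. Over all genes 7 were called (0.0543%) and 1863 (14.5%) had an unadjusted p below 0.05. The interaction was negative, that is the dKO change lay below the WT change, for 21 of 29 collagens and for 60.1% of all tested genes. For Col1a1 it was -1.61 ± 0.31 (95% interval -2.30 to -0.92, adjusted p = 0.197) and for Col3a1 -1.59 ± 0.25 (-2.15 to -1.02, adjusted p = 0.143). The intervals are for single genes and carry no adjustment for the number of genes.

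The averages over genotype or surgery use libraries with and without Y-linked transcripts evenly. Averaged injury called 23 of 29 collagens higher and 0 lower, where 29.5% of all tested genes were called higher and 25.5% lower, and 16 of the 23 held in each fit that leaves out 1 library. These were 7 fibrillar, 3 basement membrane and 13 other collagens, with medians of 0.94, 0.39 and 0.41. Averaged genotype called 15 of 29 higher in dKO and 0 lower, where 11.8% and 10.4% of all tested genes were called higher and lower. They were 6 fibrillar, 1 basement membrane (Col15a1) and 8 other collagens. In sham ganglia the dKO mean FPKM was 3.84, 3.94, 2.32, 1.56 and 2.79 times the WT mean for Col1a1, Col3a1, Col5a2, Col5a3 and Col6a2. In SNI ganglia it was 1.13, 1.23, 1.40, 1.52 and 1.34 times the WT mean in that order. For Col1a1 and Col3a1 the average thus came mostly from the sham pair, in which WT sham was low. Of the 15, 5 held in each fit that leaves out 1 library (Col1a1, Col3a1, Col5a2, Col5a3 and Col6a2), and the count fell to 7 without WT SNI 1 or WT sham 2, to 8 without dKO sham 2 and to 9 without dKO SNI 2.

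**Figure D2:**
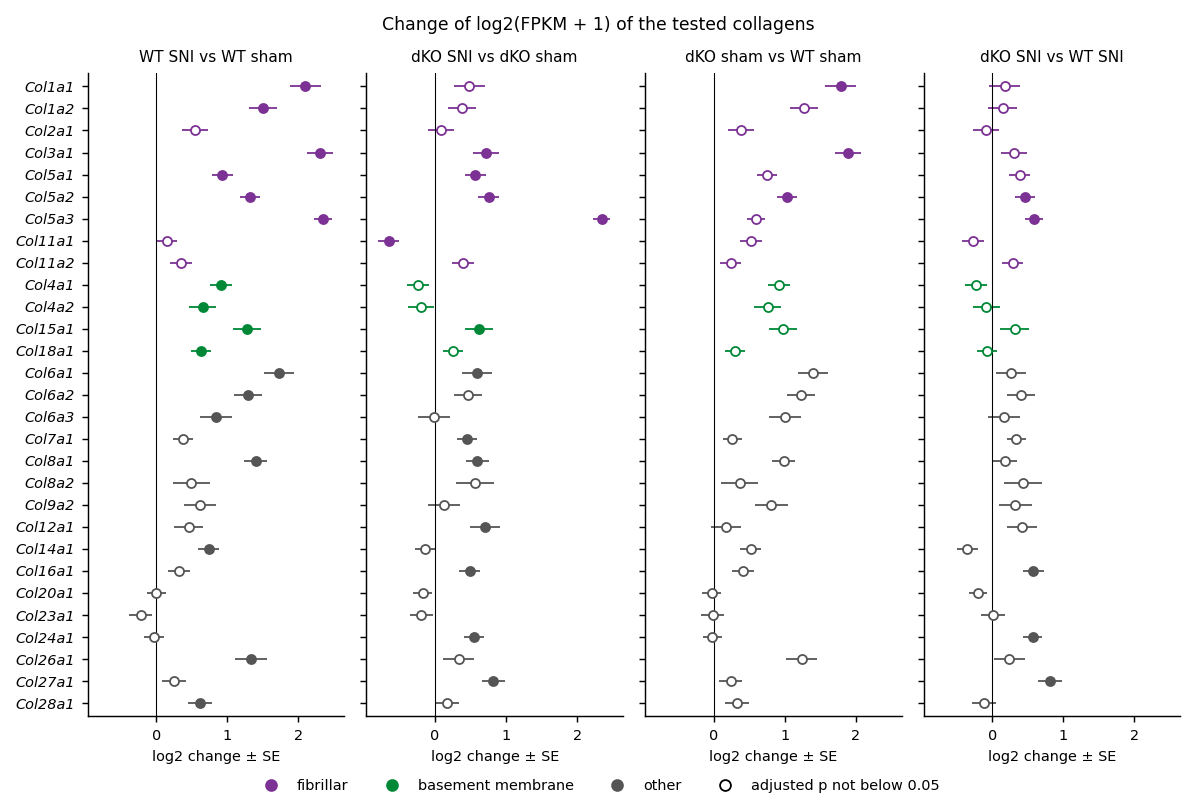
Log2 change with its standard error for each tested collagen in WT SNI against WT sham, dKO SNI against dKO sham, dKO sham against WT sham and dKO SNI against WT SNI, on the log2(FPKM + 1) scale, with filled points for called changes. Col5a3 stands at 2.35 in WT and 2.34 in dKO in the comparisons of surgery, and Col1a1 and Col3a1 at 1.79 and 1.89 in dKO sham against WT sham.

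The start regions of Col5a3 and Col3a1 are printed here because these fibrillar genes had the largest log2(FPKM + 1) changes in WT SNI against WT sham. The bases are the 250 before the annotated start in RefSeq (GRCm38.p6), 5′ to 3′ on the gene's strand: chr1:45311288-45311537 (plus strand) for Col3a1 and chr9:20815068-20815317 (minus strand) for Col5a3. Capitals mark GGGCGG or its reverse complement CCGCCC, the box bound by Sp1 family factors, CCAAT, and TATAAA.
Col3a1: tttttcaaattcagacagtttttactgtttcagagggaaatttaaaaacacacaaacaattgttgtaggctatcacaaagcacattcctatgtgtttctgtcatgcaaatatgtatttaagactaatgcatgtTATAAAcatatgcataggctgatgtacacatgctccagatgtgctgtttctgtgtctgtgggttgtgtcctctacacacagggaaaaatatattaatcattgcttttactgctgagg
Col5a3: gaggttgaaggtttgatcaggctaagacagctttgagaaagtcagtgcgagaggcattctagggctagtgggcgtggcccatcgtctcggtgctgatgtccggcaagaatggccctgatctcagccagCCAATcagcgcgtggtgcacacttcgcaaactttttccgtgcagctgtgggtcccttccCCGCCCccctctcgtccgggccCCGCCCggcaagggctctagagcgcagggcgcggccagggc
The Col5a3 window has 62.8% G and C, and it holds CCAAT and 2 matches to CCGCCC. The Col3a1 window has 35.2% G and C and TATAAA beginning 117 bases before the start, and neither of the other motifs. Matches were sought on both strands. Among 32851 RefSeq windows of this length, 12.4% hold TATAAA or TTTATA, 33.8% CCAAT or ATTGG and 32.7% GGGCGG or CCGCCC. Of 38 collagen windows, 5, 13 and 22 hold them. Counted by gene, 5, 13 and 21 of the 35 collagen genes with an entry do. A match is a description of letters and not a bound site.

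Type I collagen, the main fibre of connective tissue, is a trimer of Col1a1 and Col1a2 chains, and type III, from Col3a1 alone, runs in finer fibrils beside it. Col1a1 (chr11:94936224-94953042, plus strand, GRCm38) measured 43.9 and 40.5 FPKM in dKO SNI, 23.5 and 38.0 in dKO sham, 33.3 and 41.8 in WT SNI, and 8.92 and 7.09 in WT sham. Col1a2 (chr6:4504814-4541544, plus strand) measured 91.9 and 90.4, 56.4 and 86.3, 78.6 and 86.2, and 31.7 and 25.4 FPKM in those groups. Col3a1 (chr1:45311538-45349706, plus strand) measured 77.7 and 84.9, 43.0 and 55.8, 57.2 and 75.3, and 13.5 and 11.5 FPKM. For all 3 genes WT sham lay below every other library, and dKO SNI lay above dKO sham.

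In WT SNI against WT sham all 3 rose: Col3a1 by 2.30 ± 0.18 (adjusted p = 7.00e-05), Col1a1 by 2.09 ± 0.22 (adjusted p = 0.000342) and Col1a2 by 1.5 ± 0.20 (adjusted p = 0.00121). After axotomy in dKO, against dKO sham, the difference was 0.72 ± 0.18 for Col3a1 (adjusted p = 0.00939), 0.48 ± 0.22 for Col1a1 (adjusted p = 0.0929) and 0.38 ± 0.20 for Col1a2 (adjusted p = 0.143). The Col3a1 call there was lost without dKO SNI 2 (adjusted p = 0.0567) and without dKO sham 1 (0.0716).

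The sham groups also differed in these genes. Col3a1 was higher by 1.89 ± 0.18 in the dKO sham group (adjusted p = 0.00344) and Col1a1 by 1.79 ± 0.22 (adjusted p = 0.0144). Col1a2 differed by 1.27 ± 0.20 (adjusted p = 0.0572). The Col1a1 call was lost without dKO sham 2 (adjusted p = 0.0785) and without WT sham 2 (0.1), and without a filter on low values neither passed (Col1a1 0.151, Col3a1 0.0504). Between the SNI groups the differences were 0.30 ± 0.18 for Col3a1, 0.18 ± 0.22 for Col1a1 and 0.15 ± 0.20 for Col1a2, and none passed (adjusted p = 0.231 to 0.612). Averaged over both genotypes, Col3a1 was 1.51 ± 0.13 higher in SNI than in sham ganglia (adjusted p = 2.60e-05), Col1a1 1.29 ± 0.15 and Col1a2 0.94 ± 0.14.

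The ratio of transcripts within types I and III also differed between groups. Col1a1 over Col1a2 was 0.478 and 0.448 in dKO SNI, 0.418 and 0.440 in dKO sham, 0.423 and 0.484 in WT SNI, and 0.281 and 0.279 in WT sham. Col3a1 over Col1a2 was 0.846 and 0.939, 0.763 and 0.646, 0.728 and 0.873, and 0.425 and 0.455 in that order. Both ratios were lower in both WT sham libraries than in the other 6. FPKM corrects for transcript length as the authors' models give it, so these ratios are of transcripts per length and not of chains in the protein.

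Type V collagen nucleates and thins type I fibrils. Its Col5a1 and Col5a2 chains are widespread, whereas Col5a3 in nerve was described in rat as a Schwann cell product. Col5a3 (chr9:20770050-20815067, minus strand) had the largest log2(FPKM + 1) change after axotomy of the 29 tested collagens in both genotypes, with 76.2 and 84.1 FPKM in dKO SNI against 14.3 and 15.7 in dKO sham, and 54.4 and 51.3 in WT SNI against 9.48 and 9.69 in WT sham. It was 5.35 times as high in dKO SNI as in dKO sham and 5.52 times as high in WT SNI as in WT sham, where Col26a1, at under 1 FPKM in both WT sham libraries, had a ratio of FPKM of 5.57. Every SNI library lay above every sham library.

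The log2 change of Col5a3 was 2.34 ± 0.12 in dKO SNI against dKO sham (adjusted p = 1.72e-05) and 2.35 ± 0.12 in WT SNI against WT sham (adjusted p = 9.22e-06). The interaction, the dKO change minus the WT change, was -0.0036 ± 0.17, with a 95% interval of -0.40 to 0.39. It was 0.59 ± 0.12 higher in dKO SNI than in WT SNI (adjusted p = 0.0141), a call lost without dKO SNI 2 (0.0972) and without WT SNI 1 (0.0847). In dKO sham against WT sham the difference was 0.59 ± 0.12 as well, and did not pass (adjusted p = 0.115). The averaged difference between the genotypes was 0.59 ± 0.09 (adjusted p = 0.0106), and it passed in each of the 8 fits that leave out 1 library.

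The partner chains were lower in level and moved less. Col5a2 (chr1:45374321-45503282, minus strand) measured 15.3 and 14.8 FPKM in dKO SNI, 9.12 and 7.98 in dKO sham, 9.55 and 11.9 in WT SNI, and 3.96 and 3.41 in WT sham. Col5a1 (chr2:27886425-28039514, plus strand) measured 7.27 and 7.38, 3.98 and 5.35, 5.05 and 5.71, and 2.33 and 2.37 FPKM. Both rose in dKO SNI against dKO sham (Col5a2 by 0.75 ± 0.14, adjusted p = 0.00248; Col5a1 by 0.57 ± 0.14, adjusted p = 0.0106) and in WT SNI against WT sham (1.32 ± 0.14, adjusted p = 0.000442; 0.93 ± 0.14, adjusted p = 0.00267). The Col5a1 call in the dKO comparison was lost without dKO SNI 2 (adjusted p = 0.0543) and without dKO sham 1 (0.0681).

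The balance of type V transcripts therefore differed by surgery. Col5a3 over Col5a1 was 10.5 and 11.4 in dKO SNI against 3.59 and 2.93 in dKO sham, and 10.8 and 8.99 in WT SNI against 4.07 and 4.09 in WT sham. Col5a3 over Col5a2 spanned 4.31 to 5.70 in the SNI libraries and 1.57 to 2.84 in the sham libraries. The SNI and sham libraries did not overlap in either ratio. Col5a2 was 1.03 ± 0.14 higher in dKO sham against WT sham (adjusted p = 0.0366) and 0.46 ± 0.14 higher in dKO SNI than in WT SNI (adjusted p = 0.0435). With no filter on low values the difference between the sham groups did not pass in limma (adjusted p = 0.151). The sham call ended without dKO SNI 1 or dKO SNI 2 (adjusted p = 0.0582 each), dKO sham 1 (0.111), dKO sham 2 (0.122), WT sham 1 (0.0736) or WT sham 2 (0.254), and after quantile normalization (0.0767). The SNI call ended without dKO SNI 1 (0.109), dKO SNI 2 (0.163), WT SNI 1 (0.270), WT sham 1 (0.0659) or WT sham 2 (0.0658), and under 4 further settings (0.0518 to 0.0759).

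**Figure D3:**
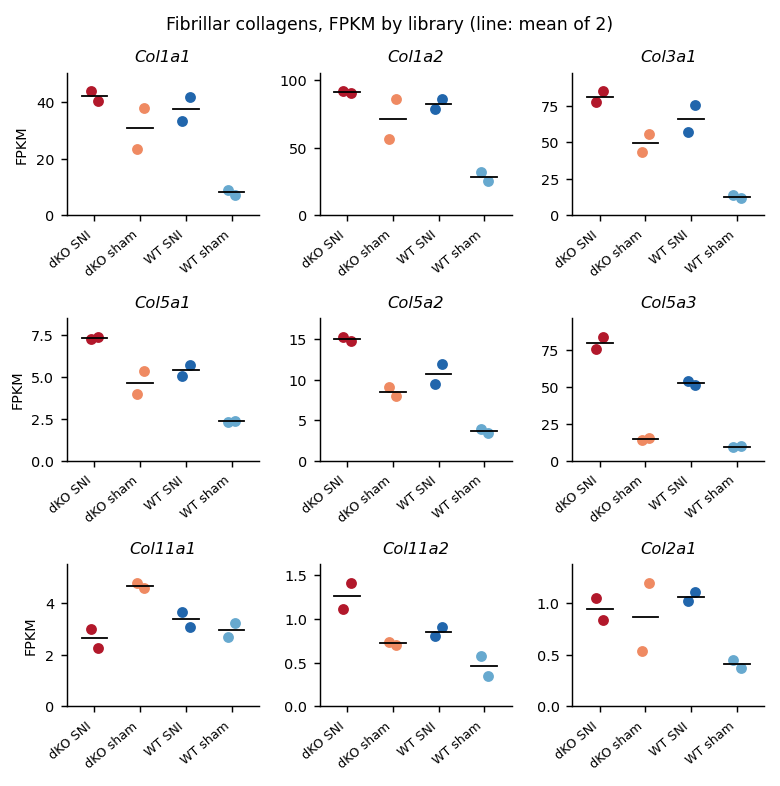
FPKM of the fibrillar collagens in each library (points, with a line at the group mean), 1 panel per gene, for dKO SNI, dKO sham, WT SNI and WT sham. Col5a3 lies at 51.3 FPKM or more in the SNI libraries and at 15.7 or less in the sham libraries, and Col3a1 lies at 11.5 and 13.5 FPKM in WT sham against 43.0 or more elsewhere.

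**Figure D4:**
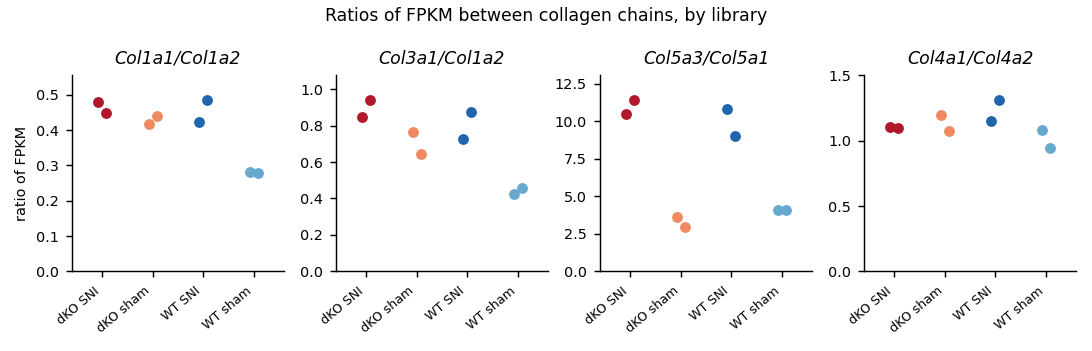
Ratios of FPKM in each library (points) for Col1a1 over Col1a2, Col3a1 over Col1a2, Col5a3 over Col5a1 and Col4a1 over Col4a2, 1 panel each, in dKO SNI, dKO sham, WT SNI and WT sham. Col5a3 over Col5a1 separates SNI (8.99 to 11.4) from sham libraries (2.93 to 4.09), and Col1a1 over Col1a2 is lowest in WT sham (0.279 and 0.281).

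Types II and XI are fibrillar collagens best known from cartilage. Col11a1, which begins and limits cartilage fibrils, measured 3.01 and 2.25 FPKM in dKO SNI, 4.78 and 4.56 in dKO sham, 3.65 and 3.08 in WT SNI, and 2.69 and 3.21 in WT sham. Its dKO sham libraries were the high ones. It fell by 0.65 ± 0.15 in dKO SNI against dKO sham (adjusted p = 0.00651), the only collagen called lower in any comparison made, and the call was lost without dKO SNI 2 (adjusted p = 0.0569). In WT SNI against WT sham it differed by 0.14 ± 0.15 (adjusted p = 0.511). Col11a2 ranged from 0.343 to 1.41 FPKM and Col2a1, the main cartilage collagen, from 0.366 to 1.19 FPKM. Col11a2 was called higher in the averaged injury comparison (0.37 ± 0.11, adjusted p = 0.0151), but not without WT sham 2 (0.0711) or dKO SNI 2 (0.0539), nor after quantile normalization (0.332). Col2a1 was called in no comparison. The 8 cartilage markers found summed to 4.57 to 7.92 FPKM per library, with Matn1 at 0 in every library and Acan at 0.0232 to 0.108 FPKM. Others of the list were present, and 1 to 4 of the 8 reached 1 FPKM in a library. In averaged injury 2 of the 4 tested were called higher and 1 lower, where 29.5% and 25.5% of all tested genes were. The lower share was near that of all genes.

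In the basement membrane, type IV networks consist mostly of Col4a1 and Col4a2 chains. Col4a1 (chr8:11198423-11312826, minus strand) measured 13.6 and 12 FPKM in dKO SNI, 14.0 and 16.4 in dKO sham, 17.4 and 13.2 in WT SNI, and 7.86 and 7.29 in WT sham. Col4a2 (chr8:11312805-11449287, plus strand) measured 12.3 and 10.9, 11.8 and 15.2, 15.1 and 10.1, and 7.27 and 7.75 FPKM. WT sham was below the other 6 libraries for both, and those 6 overlapped. The genes lie head to head and overlap by 22 bases in GENCODE M21, and their ratio stayed between 0.941 and 1.31 in the 8 libraries.

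Col4a1 rose by 0.91 ± 0.16 in WT SNI against WT sham (adjusted p = 0.00377) and Col4a2 by 0.65 ± 0.19 (adjusted p = 0.0364). In dKO SNI against dKO sham they differed by -0.23 ± 0.16 and -0.20 ± 0.19 and did not pass (adjusted p = 0.238 and 0.413). The interaction for Col4a1 was -1.15 ± 0.22, with a 95% interval of -1.64 to -0.66 and an adjusted p of 0.197. In dKO sham against WT sham Col4a1 differed by 0.91 ± 0.16 (adjusted p = 0.0775) and Col4a2 by 0.76 ± 0.19 (adjusted p = 0.179). The Col4a2 call in WT was lost without WT SNI 1 (adjusted p = 0.173), WT sham 1 (0.143) or WT sham 2 (0.125), and without a filter on low values (0.0809).

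Types XV and XVIII carry glycosaminoglycan chains and sit at the outer face of basement membranes, and the tail of type XVIII is the source of endostatin. Col15a1 measured 19.3 and 14.0 FPKM in dKO SNI, 8.90 and 12 in dKO sham, 11.8 and 14.3 in WT SNI, and 5.45 and 4.18 in WT sham. It rose by 0.62 ± 0.20 in dKO SNI against dKO sham (adjusted p = 0.0280) and by 1.28 ± 0.20 in WT SNI against WT sham (adjusted p = 0.00265). The dKO call was lost without dKO SNI 1 (adjusted p = 0.169) or dKO sham 1 (0.176). Col18a1 measured 3.41 and 4.48, 3.08 and 3.19, 4.35 and 3.97, and 2.29 and 2.41 FPKM in the same order of groups. It rose by 0.62 ± 0.14 in WT SNI against WT sham (adjusted p = 0.0137), but not without any 1 of the 4 WT libraries (adjusted p = 0.0524 to 0.0788).

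Type VI collagen forms beaded filaments around cells and is made by fibroblasts and Schwann cells. Col6a1 measured 16.0 and 18.9 FPKM in dKO SNI, 9.72 and 13.0 in dKO sham, 12.3 and 16.8 in WT SNI, and 4.49 and 2.91 in WT sham. Col6a2 ranged from 2.51 FPKM in WT sham 2 to 12.9 in dKO SNI 2, and Col6a3 from 0.897 in WT sham 1 to 4.40 in dKO sham 2. All 3 chains were lowest in WT sham. In WT SNI against WT sham Col6a1 rose by 1.73 ± 0.21 (adjusted p = 0.000844), Col6a2 by 1.29 ± 0.20 (adjusted p = 0.00240) and Col6a3 by 0.83 ± 0.22 (adjusted p = 0.0267). The Col6a3 call was lost without any 1 of the 4 WT libraries (adjusted p = 0.0688 to 0.128).

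In dKO SNI against dKO sham Col6a1 rose by 0.59 ± 0.21 (adjusted p = 0.0451), which was lost without dKO SNI 1 (0.0617), dKO SNI 2 (0.211) or dKO sham 1 (0.245). Col6a2 differed there by 0.46 ± 0.20 (adjusted p = 0.0776) and Col6a3 by -0.01 ± 0.22 (adjusted p = 0.976). Averaged over surgery, Col6a2 was 0.82 ± 0.14 higher in dKO than in WT ganglia (adjusted p = 0.0122), and passed in each of the 8 fits that leave out 1 library. The genes for Col6a1 and Col6a2 are neighbours on chromosome 10, and their ratio ranged from 1.16 to 1.75.

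Type VIII collagen forms a hexagonal network under some endothelia and in vessel walls. Col8a1 measured 5.74 and 6.48 FPKM in dKO SNI, 3.42 and 3.99 in dKO sham, 4.32 and 6.35 in WT SNI, and 1.36 and 1.39 in WT sham. It rose by 0.60 ± 0.17 in dKO SNI against dKO sham (adjusted p = 0.0160) and by 1.40 ± 0.17 in WT SNI against WT sham (adjusted p = 0.000754). The dKO call was lost without dKO SNI 2 (adjusted p = 0.0966) or dKO sham 1 (0.0881). Col8a2 ranged from 0.554 to 3.36 FPKM and was called in the averaged injury comparison alone (0.53 ± 0.19, adjusted p = 0.0376). Leaving out any of dKO SNI 2, dKO sham 1, WT SNI 2 and WT sham 2 ended that call (adjusted p = 0.122 to 0.136), as did quantile normalization (0.135) and the absence of a filter (0.0853).

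Col24a1 and Col27a1 were higher in dKO SNI than in any other group. Types XXIV and XXVII are relatives of the fibrillar collagens by sequence, although the rule places them with the others. Col27a1 measured 3.32 and 4.84 FPKM in dKO SNI, 2.05 and 1.65 in dKO sham, 1.94 and 1.80 in WT SNI, and 1.46 and 1.37 in WT sham. Col24a1 measured 3.85 and 4.28, 2.40 and 2.51, 2.56 and 2.29, and 2.21 and 2.81 FPKM. For both genes the dKO SNI libraries lay above all others. This was not particular to them. Among the tested collagens it also held for Col1a2, Col3a1, Col5a1, Col5a2, Col5a3, Col6a2, Col7a1, Col11a2 and Col16a1. How often it held over all genes was not counted.

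Col27a1 rose by 0.82 ± 0.17 in dKO SNI against dKO sham (adjusted p = 0.00339) and differed by 0.25 ± 0.17 in WT SNI against WT sham (adjusted p = 0.299). Col24a1 rose by 0.55 ± 0.14 in dKO SNI against dKO sham (adjusted p = 0.00948), lost without dKO SNI 2 (0.0646), and differed by -0.03 ± 0.14 in WT SNI against WT sham (adjusted p = 0.884). The interaction was 0.57 ± 0.23 for Col27a1 (95% interval 0.05 to 1.10, adjusted p = 0.321) and 0.58 ± 0.19 for Col24a1 (0.15 to 1.02, adjusted p = 0.280), so the difference between the genotypes did not pass. Against WT SNI, dKO SNI was higher in Col27a1 by 0.81 ± 0.17 (adjusted p = 0.0132), in Col24a1 by 0.57 ± 0.14 (0.0210) and in Col16a1 by 0.58 ± 0.15 (0.0266). Each of these 3 was lost without dKO SNI 2 (adjusted p = 0.102 to 0.172) and without WT SNI 1 (0.0846 to 0.108). Without WT SNI 2, Col24a1 (0.0677) and Col16a1 (0.0856) were lost as well.

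The fibril-associated collagens bind to the surface of fibrils and link them to other matrix. Col16a1 measured 9.31 and 10.8 FPKM in dKO SNI, 5.92 and 7.99 in dKO sham, 6.71 and 6.09 in WT SNI, and 4.87 and 5.01 in WT sham. It rose by 0.49 ± 0.15 in dKO SNI against dKO sham (adjusted p = 0.0257), lost without dKO SNI 2 (0.151) or dKO sham 1 (0.161). Col12a1 measured 2.43 and 3.27, 1.11 and 1.61, 1.34 and 2.48, and 1.13 and 1.04 FPKM, and rose by 0.71 ± 0.21 in dKO SNI against dKO sham (adjusted p = 0.0198), lost without dKO SNI 2 (0.135) or dKO sham 1 (0.120).

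Other members of this kind moved in WT or in neither genotype. Col14a1 measured 4.5 and 4.09 FPKM in dKO SNI, 4.41 and 5.24 in dKO sham, 5.10 and 6.46 in WT SNI, and 3.25 and 2.85 in WT sham. It rose by 0.74 ± 0.15 in WT SNI against WT sham (adjusted p = 0.00783), lost without WT SNI 2 (0.0677) or WT sham 2 (0.0688). Col9a2 ranged from 2.42 to 7.18 FPKM and was called in the averaged genotype comparison alone (0.57 ± 0.16, adjusted p = 0.0364), a call lost in every fit that left out 1 library other than dKO sham 1 (adjusted p = 0.0580 to 0.105). Col20a1 lay between 0.842 and 1.19 FPKM and was called in no comparison.

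Col28a1, a collagen with von Willebrand factor A domains that in mouse is found around Schwann cells and satellite glia, was the fifth most abundant member. It measured 22.6 and 17.0 FPKM in dKO SNI, 19.1 and 15.7 in dKO sham, 19.8 and 22.9 in WT SNI, and 14.9 and 12.4 in WT sham. The range over all libraries was narrow beside that of the leading fibrillar genes. It rose by 0.61 ± 0.17 in WT SNI against WT sham (adjusted p = 0.0311), lost without WT SNI 2 (0.178), WT sham 1 (0.0614) or WT sham 2 (0.211). The difference in dKO SNI against dKO sham was 0.17 ± 0.17 (adjusted p = 0.438).

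Col26a1 measured 3.47 and 3.42 FPKM in dKO SNI, 1.73 and 3.56 in dKO sham, 3.11 and 2.46 in WT SNI, and 0.570 and 0.430 in WT sham. It rose by 1.33 ± 0.22 in WT SNI against WT sham (adjusted p = 0.00339) and differed by 0.33 ± 0.22 in dKO SNI against dKO sham (adjusted p = 0.237). Col7a1, the anchoring fibril collagen of skin, ranged from 0.514 to 1.52 FPKM, and the keratinocyte marker Krt5 was at 0 in every library. Col7a1 rose by 0.45 ± 0.14 in dKO SNI against dKO sham (adjusted p = 0.0226), lost without dKO SNI 1 (0.0628), dKO SNI 2 (0.0894) or dKO sham 1 (0.106). Col23a1, a membrane-spanning collagen, was at 4.38 to 6.69 FPKM and was called in no comparison.

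**Figure D5:**
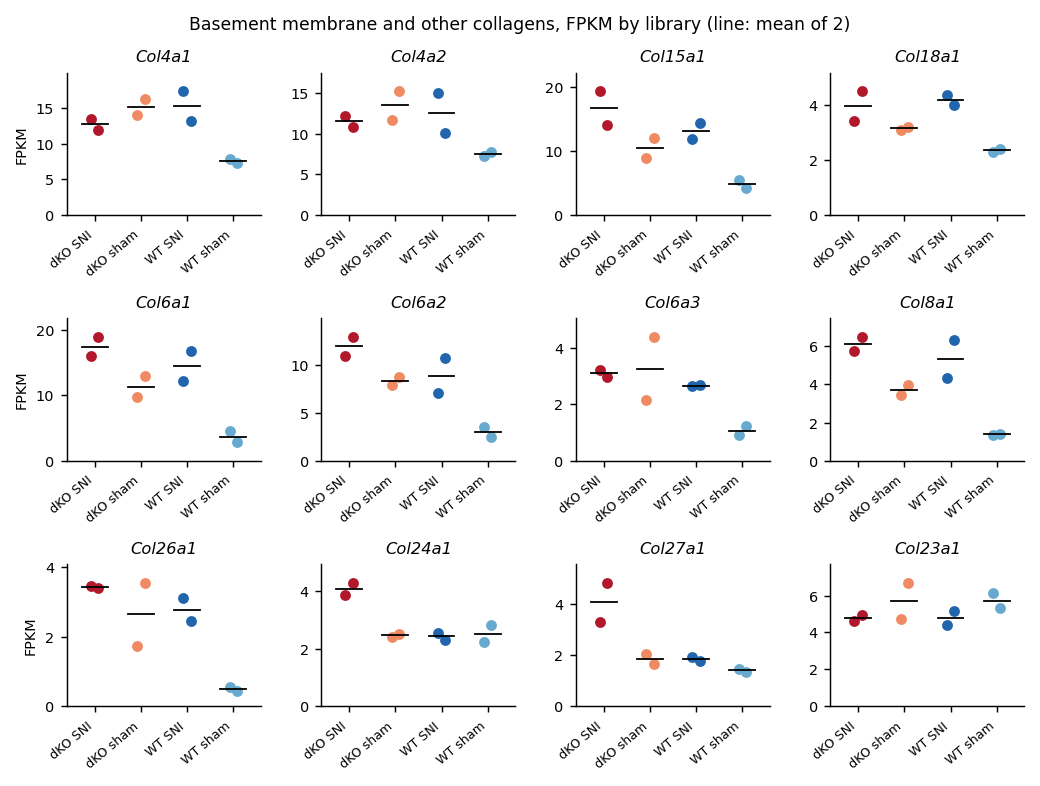
FPKM of 4 basement membrane collagens (Col4a1, Col4a2, Col15a1, Col18a1) and 8 other collagens in each library (points, with a line at the group mean), 1 panel per gene, for dKO SNI, dKO sham, WT SNI and WT sham. Col4a1 and Col4a2 are lowest in WT sham and overlap among the other 3 groups, while Col27a1, Col24a1 and Col6a2 are highest in both dKO SNI libraries.

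Of the 15 members that did not reach the filter, 12 stayed under 1 FPKM in every library. The remaining 3, Col9a3, Col10a1 and Col25a1, reached it in 1 library each, with highest values of 1.08, 1.06 and 1.10 FPKM. Just inside the filter, Col11a2 reached it in 2 libraries and Col7a1 in 3. Of the alternative type IV chains of kidney, eye and smooth muscle basement membranes, Col4a3, Col4a4 and Col4a5 lay between 0.196 and 0.626 FPKM and Col4a6 at no more than 0.0411. Col6a5 was at 0.705 and 0.489 FPKM in dKO SNI, 0.198 and 0.0702 in dKO sham, 0.448 and 0.577 in WT SNI, and 0.0698 and 0.0525 in WT sham, with every SNI library above every sham library. Col17a1, of epidermal anchoring complexes, reached at most 0.163 FPKM, Col13a1 0.186, Col22a1 0.159, Col19a1 0.451, Col6a4 0.173, Col6a6 0.102 and Col9a1 0.102.

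Genes that process, bind or break down collagen were followed in 6 lists. In the averaged injury comparison, which called 29.5% of all genes higher and 25.5% lower, 17 of 30 tested processing genes were called higher and 2 lower. Loxl2, which cross-links collagen, measured 5.74 and 5.28 FPKM in dKO SNI, 1.69 and 1.87 in dKO sham, 7.88 and 6.22 in WT SNI, and 0.450 and 0.668 in WT sham, and rose by 1.80 ± 0.11 (adjusted p = 4.72e-06). Bmp1, the protease that cuts the C-terminal propeptide, rose by 1.44 ± 0.12 (adjusted p = 2.65e-05), and Pcolce, which enhances that cut, by 1.26 ± 0.11 (adjusted p = 3.65e-05). In the averaged genotype comparison, which called 11.8% of all genes higher and 10.4% lower, 6 of the 30 were called higher and 3 lower, the lower share near that of all genes, with Pcolce higher in dKO by 0.72 ± 0.11, the cross-linking enzyme Lox by 0.63 ± 0.10 and the prolyl hydroxylase P3h3 by 0.57 ± 0.09 (adjusted p = 0.0116 each).

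Of 15 tested genes of collagen breakdown and uptake, 10 were called higher after injury and 2 lower. Mmp16, a membrane-bound metalloproteinase, rose by 1.89 ± 0.13 (adjusted p = 8.54e-06), Timp1, an inhibitor of such enzymes, by 1.49 ± 0.16 (adjusted p = 9.62e-05), and Mfge8, which aids collagen uptake, by 1.03 ± 0.11 (adjusted p = 9.70e-05). Between genotypes 6 of the 15 were called higher in dKO and 1 lower. The collagenase Mmp8 measured 30.5 and 27.1 FPKM in dKO SNI, 5.00 and 8.58 in dKO sham, 7.11 and 12.1 in WT SNI, and 5.39 and 7.33 in WT sham, so its difference lay in the dKO SNI libraries. Its averaged genotype call (0.79 ± 0.19, adjusted p = 0.0219) and those of Ctsk (0.67 ± 0.16, adjusted p = 0.0207) and Mmp2 (0.77 ± 0.19, adjusted p = 0.0227) were each lost without dKO SNI 2 (0.0550 to 0.0733), dKO sham 2 (0.0691 to 0.0748) or WT SNI 1 (0.0578 to 0.0732). They were also lost without WT sham 2 for Ctsk (0.0742) and Mmp2 (0.0805), without WT sham 1 for Mmp8 (0.0587), and without a filter on low values (0.0618 to 0.0674).

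Of 8 tested receptors, 4 were called higher after injury and 2 lower, where 29.5% and 25.5% of all tested genes were. The lower share was near that of all genes. Mrc1, a macrophage lectin that takes up collagen and also a marker in the macrophage list, measured 27.7 and 22.2 FPKM in dKO SNI, 3.36 and 3.33 in dKO sham, 19.0 and 22.0 in WT SNI, and 2.01 and 1.77 in WT sham. It rose by 2.73 ± 0.10 after injury (adjusted p = 5.30e-07). Itgb1, the integrin beta chain shared by the collagen-binding integrins, rose by 0.81 ± 0.11 (adjusted p = 0.000253) and the collagen receptor kinase Ddr2 by 1.01 ± 0.14 (adjusted p = 0.000370). Between genotypes, where the shares in this list were near those of all genes (11.8% higher and 10.4% lower), 1 of 8 was called higher (Mrc1, by 0.43 ± 0.10, adjusted p = 0.0217) and 1 lower (Adgrg1, a receptor for type III collagen, which fell by 0.55 ± 0.14, adjusted p = 0.0251). Both calls were lost without WT sham 2 (adjusted p = 0.0870 and 0.0927), WT SNI 1 (0.0796 and 0.0858) or dKO sham 2 (0.0625 and 0.0691), and that of Adgrg1 also without dKO SNI 2 (0.0820) or dKO sham 1 (0.0526). Without a filter on low values neither passed (0.0515 and 0.0637).

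Proteins that bind fibrils were called higher in 16 of 19 and lower in 2 of 19 after injury. Comp, which organises type I and II fibrils, was 0.631 and 1.33 FPKM in dKO SNI against 6.77 and 7.54 in dKO sham, and 0.627 and 1.12 in WT SNI against 6.79 and 6.81 in WT sham. It fell by 2.07 ± 0.14 (adjusted p = 8.24e-06), against the direction of the collagens. Spock2, a proteoglycan, fell by 1.38 ± 0.16 (adjusted p = 0.000127), and Tgfbi, which binds collagen and integrins, rose by 1.78 ± 0.15 (adjusted p = 3.11e-05). Between genotypes 9 were called higher and 1 lower, including the small proteoglycan Bgn (0.74 ± 0.13, adjusted p = 0.0131), Tgfbi (0.81 ± 0.15, adjusted p = 0.0142) and Thbs4 (0.82 ± 0.16, adjusted p = 0.0144). Each of these 3 was lost without some of the libraries, Bgn without dKO sham 2 (adjusted p = 0.0512), and Tgfbi and Thbs4 without WT SNI 1 (0.0517 for both) or WT sham 2 (0.0520 and 0.0521), besides dKO sham 2 for Tgfbi (0.0520) and dKO SNI 2 for Thbs4 (0.0515).

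Basement membrane partners were called higher in 11 of 16 and lower in 1 of 16 after injury. The nidogens, which link laminin to type IV collagen, rose by 0.65 ± 0.08 (Nid2, adjusted p = 0.000213) and 0.64 ± 0.08 (Nid1, adjusted p = 0.000243), and the laminin chain Lama5 rose by 0.78 ± 0.10 (adjusted p = 0.000255). Between genotypes 5 were called higher and 0 lower, with the proteoglycan Agrn at 0.48 ± 0.09 (adjusted p = 0.0143), lost without WT sham 2 (0.0583), dKO sham 2 (0.0515) or WT SNI 1 (0.0505). Of 27 tested genes of TGF-beta signalling and its matrix regulators, 15 were called higher and 4 lower after injury. Tgfb1, a main inducer of collagen genes in fibroblasts, measured 13.1 and 11.9 FPKM in dKO SNI, 3.65 and 4.77 in dKO sham, 6.92 and 7.59 in WT SNI, and 2.22 and 2.96 in WT sham. It rose by 1.29 ± 0.11 after injury (adjusted p = 2.85e-05), as did the latent TGF-beta binding protein Ltbp1 by 0.91 ± 0.10 (9.51e-05). Between genotypes 2 of the 27 were called higher and 0 lower, both shares below those of all genes: Tgfb1 (0.62 ± 0.11, adjusted p = 0.0131) and Ltbp4 (0.35 ± 0.09, adjusted p = 0.0268), of which Ltbp4 was lost without dKO SNI 2 (0.0707), dKO sham 2 (0.0762), WT SNI 1 (0.0903), WT sham 1 (0.0585) or WT sham 2 (0.109), and without a filter (0.0563).

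Of the marker lists for cells that a ganglion sample can hold, some had higher sums after axotomy in both genotypes and others did not. The 12 fibroblast markers, of which Dcn, Lum, Fbln1 and Pdgfra are also in the lists above, summed to 1226 to 1628 FPKM in dKO SNI, 541 to 633 in dKO sham, 650 to 977 in WT SNI and 349 to 478 in WT sham. The 10 macrophage markers summed to 484 to 577, 56.0 to 78.0, 296 to 302 and 33.8 to 46.8 FPKM, and the 10 perineurial and meningeal markers to 155 to 337, 88.2 to 105, 167 to 288 and 62.2 to 109 FPKM. The 10 cell cycle genes summed to 80.3 to 95.4, 19.1 to 24.4, 34.8 to 53.0 and 7.77 to 11.1 FPKM. No fibroblast, macrophage or perineurial marker was at 0 in any library, and all of these sums were higher in SNI than in sham libraries of the same genotype. Their part in the collagen differences was not tested.

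The 10 Schwann cell markers summed to 3068 to 3588 FPKM in dKO SNI, 3419 to 4987 in dKO sham, 3581 to 4116 in WT SNI and 2532 to 3101 in WT sham, with WT sham at the low end. The 9 satellite glia markers summed to 2051 to 2549, 3013 to 3342, 2542 to 2759 and 1936 to 2163 FPKM. The 12 sensory neuron markers summed to 2267 to 3265, 4290 to 4824, 4125 to 5188 and 4841 to 5113 FPKM, lowest in dKO SNI. Endothelial, bone and adipocyte sums were also higher in SNI than in sham libraries of the same genotype and highest in dKO SNI. Endothelial markers summed to 75.6 to 76.5 FPKM in dKO SNI, 53.0 to 62.7 in dKO sham, 54.5 to 57.3 in WT SNI and 47.8 to 50.1 in WT sham. In averaged injury 3 of 10 were called higher, a share near the 29.5% of all tested genes. Adipocyte markers summed to 20.4 to 21.7, 9.55 to 17.6, 9.92 to 14.0 and 3.08 to 7.93 FPKM, and 2 of 4 tested were called higher. Bone markers summed to 123 to 142, 64.6 to 82.8, 92.5 to 106 and 69.6 to 73.2 FPKM, and 3 of 4 tested were called higher. Only 3 to 6 of the 10 bone markers reached 1 FPKM in a library, so these sums rest on few genes. Of the bone markers, Ibsp measured 5.35 and 3.20 FPKM in dKO SNI, 1.79 and 2.50 in dKO sham, 6.21 and 4.38 in WT SNI, and 2.10 and 2.39 in WT sham, while Mepe was at 0 in every library and Sp7 at no more than 0.136. Pericyte and smooth muscle markers summed to 96.0 to 114 FPKM over all libraries, and keratinocyte markers to 0.708 to 1.82 FPKM. Skeletal muscle markers summed to 49.1 to 94.9 FPKM in the dKO libraries and WT SNI, and to 86.0 and 799 FPKM in WT sham. In dKO sham 1 and WT SNI 1 only 1 of the 10 genes reached 1 FPKM, so 1 gene carried most of those sums. In WT sham 2 all 10 reached it. The part of these cells in the collagen results was not tested.

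Neighbouring genes and overlaps bear on how far single values can be read. Several collagen genes lie in pairs: Col4a4 and Col4a3 head to head with 71 bases between them, Col4a6 and Col4a5 head to head with 1308 bases between them on the X chromosome, and Col3a1 and Col5a2 tail to tail with 24614 bases between them. The strand of the libraries is not stated, so reads of a gene and of an antisense partner cannot be told apart. Exonic overlap with another annotated gene covered at most 6.07% of a member's exonic bases, for Col9a3 with Tcfl5, and 5.65% for Col4a3. The paired genes did not share levels in general: Col3a1 averaged 52.4 FPKM and Col5a2 9.51 FPKM over the 8 libraries, while Col4a1 and Col4a2 averaged 12.7 and 11.3 FPKM.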

How the data were processed

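Ganglion RNA was made into paired-end TruSeq libraries, per the labels' protocols. Per the submitters' processing notes, StringTie 1.3.0, HISAT2 2.0.4, edgeR (no version), mm10 and GRCm38.p4 were involved, with no role named. The authors deposited 1 table of FPKM values for 21878 rows and 8 libraries; the sources used here give neither the annotation nor any further scaling. FPKM depends on transcript models and on each library's total. Ratios between low values were within 0.1 of a whole number in 41.5% of 7443 cases (20% by chance), so reads could not be recovered and the precision that depth gives is unknown.

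Genes reaching 1 FPKM in 2 or more libraries were tested as log2(FPKM + 1) with limma 3.58.1 (R 4.3.3): 1 mean per group, 4 residual degrees of freedom, empirical Bayes moderation with a trend, two-sided tests, Benjamini-Hochberg adjustment over all 12884 genes and a threshold of 0.05. An exact permutation test of 2 libraries against 2 cannot go below p = 0.333. The code was tested on simulated data. Averaged contrasts take the mean of both genotypes or both surgeries; the interaction is the injury change in dKO minus that in WT. Promoters are RefSeq windows (GRCm38.p6) and gene positions GENCODE M21 (GRCm38).

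The collagen members and all 21 gene lists (6 pathway lists and 15 marker lists, 280 of 284 entries found) were chosen with earlier results of these data known. Every collagen may be named. Of each pathway list, the 3 genes with the smallest p in the averaged injury and the averaged genotype contrast could be named, and 1 of these is not reported here; Ckm, Acan, Matn1, Krt5, Ibsp, Mepe and Sp7 were named from marker lists after their values were seen. Alternatives covered the pseudocount, filter, scaling, moderation, a replicate block, the libraries in the fit and leaving out each library.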

Additional observations from a re-analysis of the deposited data

How the results depend on the processing

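No called change of a single collagen changed sign under the alternatives run. The basement membrane median, near 0, did: in dKO injury it was 0.026 as reported, -0.028 with no filter and -0.053 without dKO sham 1, below 0 also without dKO SNI 2, and -0.20 with the filter raised to a mean of 5 FPKM. In the SNI genotype comparison it was -0.079 as reported and 0.082 without WT SNI 1. With a mean of at least 5 FPKM, which leaves 13 collagens tested, 11 were called in WT SNI against WT sham, 6 in dKO SNI against dKO sham, 7 in dKO sham against WT sham, 3 in dKO SNI against WT SNI and 11 in averaged injury. In dKO sham against WT sham, where 3 were called, a pseudocount of 0.1 gave 9, 0.5 gave 6, robust moderation 6 and no filter 0 (limma; at an unadjusted p below 0.05 the reported fit had 18 of 29, against 10.8% of all genes). No filter gave 3 in dKO SNI against WT SNI. Leaving out 1 library each gave 12 to 19 calls in WT injury, 4 to 17 in dKO injury, 1 to 7 in the sham and 0 to 6 in the SNI genotype comparison, 17 to 23 in averaged injury, 7 to 16 in averaged genotype and 0 in the interaction.

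Median log2 changes by class moved as follows. With a pseudocount of 0.1, fibrillar medians were 1.51 (WT injury), 0.66 (dKO injury), 0.95 (sham genotype) and -1.0 (interaction), and medians of other collagens 0.79 (WT injury), 0.61 (sham genotype), 0.68 (averaged injury) and 0.61 (averaged genotype). With no filter, which adds members near 0, basement membrane medians were 0.40 (WT injury), 0.27 (sham genotype), -0.33 (interaction), 0.19 (averaged injury) and 0.15 (averaged genotype), and those of other collagens 0.28, 0.12, 0.12, -0.052 and 0.16 (WT injury, dKO injury, SNI genotype, interaction, averaged genotype). With a mean of at least 5 FPKM, fibrillar medians were 2.09 (WT injury), 0.72 (dKO injury), 1.27 (sham genotype), -1.12 (interaction), 1.29 (averaged injury) and 0.74 (averaged genotype), and the basement membrane median in dKO injury was -0.20. After quantile normalization the median of other collagens in WT injury was 0.39 and the fibrillar interaction -0.40.

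Leaving out 1 library each, fibrillar medians were 1.17 to 1.47 (WT injury), 0.39 to 0.68 (dKO injury), 0.57 to 0.92 (sham genotype), 0.11 to 0.37 (SNI genotype), -0.73 to -0.44 (interaction), 0.79 to 1.02 (averaged injury) and 0.56 to 0.65 (averaged genotype). Basement membrane medians were 0.65 to 1.01, -0.05 to 0.12, 0.68 to 0.98, -0.24 to 0.08, -0.94 to -0.57, 0.33 to 0.45 and 0.22 to 0.45 in that order. Medians of other collagens were 0.45 to 0.71, 0.32 to 0.57, 0.34 to 0.59, 0.15 to 0.37, -0.34 to -0.094, 0.39 to 0.54 and 0.32 to 0.55. Where the number of tested members or libraries did not change, the cause of a shift was not tested.

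Over all genes, 2967 calls in WT injury became 1869 with a mean of at least 5 FPKM and 1101 to 3026 with 1 library left out (1101 without WT sham 2, 1133 without WT SNI 2, 1389 without WT sham 1). The 6236 of dKO injury became 3880 with a mean of at least 5 FPKM and 3887 without dKO SNI 2, and the 7092 of averaged injury became 4337 with a mean of at least 5 FPKM. The 3106 of the SNI genotype comparison became 1892 with no filter, and the 2866 of averaged genotype became 1142 with no filter and 420 to 3159 with 1 library left out (420 without WT SNI 1, 423 without dKO sham 2, 510 without WT sham 2, 694 without dKO SNI 2, 1471 without WT sham 1). The 20 of the sham genotype comparison became 55 with a pseudocount of 0.1, 6 with no filter, 32 with only the 4 libraries compared, and 11 to 31 with 1 library left out. The 7 interaction calls became 3 with a mean of at least 5 FPKM and 5 to 20 with 1 library left out.

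With replicate number as a block, the sham genotype comparison called 7 collagens and 47 genes, and the interaction 12 genes. Differences between replicates 1 and 2 correlated at -0.19 to 0.25 between groups. These correlations cannot decide whether the numbers pair the libraries, since a shared origin need not show in them. Read depth is unknown, and 2 libraries per group limit every comparison.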
